A study of Homo sapiens with 12 samples.

Results

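The genes described are 10 regulators of the integrated stress response, ATF4, ATF3, DDIT3, CEBPB, CEBPG, NUPR1, TRIB3, PPP1R15A, CHAC1 and DDIT4. They were chosen by name, with earlier results of these data known. Every bead probe annotated with 1 of these symbols was taken, which gave 15 of the 47312 probes on the arrays. ATF4 and ATF3 have 3 probes each, NUPR1 has 2, and the other members have 1. All 10 genes kept at least 1 probe that was detected (detection p-value under 0.01) on 3 or more arrays, and 1 of the 15 probes, for ATF3, was detected on none. Each gene was read by its brightest kept probe, among 12337 genes read the same way.

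RNA came from isogenic HEK293 cells, a human embryonic kidney line, that stably express either the wild-type glucocorticoid receptor (wtGR) or a SUMOylation-defective form of it (GR3KR). The cells were first kept in medium depleted of steroids, and all of them then received 100 nM dexamethasone, a synthetic agonist of the receptor, for 6 h. In each line 3 samples received dexamethasone alone and 3 received it with 5 µM 15d-PGJ2, an electrophilic prostaglandin, which makes 4 groups of 3 arrays. No sample analysed went without dexamethasone, so its own effect was not measured. The labels describe 1 line for each receptor form, so the receptor form and any other difference between the lines cannot be told apart. The title of the series places the question in how 15d-PGJ2 acts on glucocorticoid signalling by way of SUMO attached to the receptor.

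In the integrated stress response, kinases that sense different stresses phosphorylate the translation factor eIF2 alpha. General translation then falls while translation of the ATF4 mRNA rises, so ATF4 activity is set largely at the protein level, which these arrays do not measure. ATF4 binds DNA as a dimer with C/EBP family proteins and switches on genes for amino acid supply, for further transcription factors such as ATF3 and DDIT3 (CHOP), and for feedback inhibitors. TRIB3 restrains ATF4 and CHOP, and PPP1R15A (GADD34) recruits the phosphatase that returns eIF2 alpha to its resting state.

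Promoter sequence is shown here for the members that carry 1 of 2 motifs with which these factors are associated. CARE, the composite site bound by C/EBP and ATF dimers, was searched as TGATGNAA, and CRE, the site of ATF and CREB factors, as TGACGTCA, on both strands and in RefSeq windows (GRCh38.p14) from 250 bases before to 50 bases after each start. The windows, of 300 bases each, were found for 9 of the 10 members, with no entry for NUPR1. CARE was present for 3 of 9 members, against 4.46% of 27305 genes with a window, and CRE for 1 of 9, against 2.25%. A gene can have several windows. Counted by window, CARE was present in 3 of 16 for the members, against 3.62% of 35116, and CRE in 1 of 16, against 1.85%. In the 60-base stretches printed 5′ to 3′ on the gene's strand, capitals mark the motif, which the CHAC1 stretch carries on the reverse strand. They lie at chr1:212565190-212565249 for ATF3, chr19:33374045-33374104 for CEBPG, chr15:40953236-40953295 for CHAC1 and chr19:48872337-48872396 for PPP1R15A.
ATF3: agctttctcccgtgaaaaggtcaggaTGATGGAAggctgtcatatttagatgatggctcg
CEBPG: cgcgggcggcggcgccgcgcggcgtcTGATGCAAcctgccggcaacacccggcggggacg
CHAC1: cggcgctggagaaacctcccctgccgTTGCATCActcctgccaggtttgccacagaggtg
PPP1R15A: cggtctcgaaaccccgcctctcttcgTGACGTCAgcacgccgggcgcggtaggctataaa
The motif begins 191 bases before the transcript start of its RefSeq window for ATF3, 42 before for CEBPG, 209 before for CHAC1 and 58 before for PPP1R15A. For CEBPG that start, at position 33374113, lies inside the gene's full span in the RefSeq gene table, so this stretch is within the annotated gene. A match describes these letters only, and binding was not measured.

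The 3 arrays of GR3KR cells with 15d-PGJ2 stood apart from the rest. Their numbers of detected probes were 15223, 14207 and 17032, below the range of 17959 to 19950 on the 9 remaining arrays. An ACTB probe (ILMN_1777296) read 5.10, 4.86 and 5.91 on the log2 scale there and 5.85 on wtGR dexamethasone array 3. It was also low, at 8.14, 9.94 and 10.29, on wtGR 15d-PGJ2 array 3, GR3KR dexamethasone array 2 and wtGR dexamethasone array 2. The remaining 5 arrays had values from 12.63 to 13.99 for it, while another ACTB probe (ILMN_2152131) lay between 13.05 and 14.24 on all 12 arrays. Members' differences between groups that use those GR3KR arrays are given with and without arrays 1 and 2. Of the 8 HEK293 marker genes, NEFL, VIM, KRT8 and LIN28B were detected on all 12 arrays, IGF2BP1 on 10, KRT18 on 5, NEFM on 3 and PAX2 on 0. Of 10 markers of other cell types, PTPRC, CD3E, COL1A2 and MYH7 were detected on 0 arrays, DCN and CKM on 1 and COL3A1 on 2. The hepatocyte marker ALB was detected on 11 arrays, and CD14 and APOA1 on 12.

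Under dexamethasone alone the members differed between the lines. All 10 members were lower in GR3KR than in wtGR cells on every array, and 7 of 10 passed the test at a limma adjusted p under 0.05, against 5.53% of all genes called lower and 2.54% called higher. The arrays of the groups did not overlap for 10 of 10 members, against 35.7% of all genes. Both counts include CHAC1, which passed the detection filter only through wtGR arrays. The members were chosen with earlier results of these data known. The shares of all genes, here and below, are therefore a description and not independent support. The members' median log2 difference was -0.96, and the median over all genes was -0.03. In RNA from whole cultures, fewer cells that carry a transcript and less of it per cell cannot be told apart.

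ATF4 (chr22:39520559-39522686 in GRCh38.p14), the transcription factor at the head of the programme, differed least between the lines of the members, each read by its brightest probe. Its further probes, described below, did not all read alike. Its brightest probe read 13.87, 13.70 and 13.72 log2 units in wtGR cells with dexamethasone and 13.68, 13.63 and 13.66 with 15d-PGJ2. The GR3KR readings were 13.56, 13.44 and 13.47 with dexamethasone and 14.07, 13.47 and 13.47 with 15d-PGJ2. The lines did not overlap under dexamethasone alone, but the difference of -0.27 ± 0.17 (SE, n = 3 and 3) did not pass the test (limma adjusted p = 0.409). Neither 15d-PGJ2 effect passed it, at -0.11 (95% interval -0.49 to 0.27) in wtGR and 0.18 (-0.20 to 0.56) in GR3KR cells.

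CEBPB (chr20:50190583-50192690), a C/EBP transcription factor that is itself a target of the response, was lower on the GR3KR arrays, and within each line its 15d-PGJ2 arrays were the higher ones. In wtGR cells it read 12.02, 12.25 and 12.52 with dexamethasone and 12.99, 13.26 and 13.02 with 15d-PGJ2. Readings in GR3KR cells were 10.92, 10.97 and 11.06 with dexamethasone and 11.99, 12.09 and 11.79 with 15d-PGJ2. No pair of these groups that differs in 1 factor overlapped. Under dexamethasone alone GR3KR cells were 2.43-fold lower (log2 difference -1.28 ± 0.17, SE, limma adjusted p = 0.00137).

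CEBPG (chr19:33373709-33382686), a C/EBP partner of ATF4, varied little within each group. In wtGR cells it read 12.64, 12.63 and 12.65 with dexamethasone and 12.91, 13.02 and 12.89 with 15d-PGJ2. On GR3KR arrays the values were 12.17, 12.06 and 12.21 with dexamethasone and 11.71, 11.68 and 11.66 with 15d-PGJ2. The 15d-PGJ2 arrays thus lay above those with dexamethasone alone in wtGR cells and below them in GR3KR cells. The line difference under dexamethasone alone was 1.41-fold (-0.49 ± 0.12, SE, limma adjusted p = 0.0348), the smallest of the 7 that passed.

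DDIT3 (chr12:57516588-57520517), which encodes the pro-apoptotic factor CHOP, read 9.28, 9.41 and 9.66 in wtGR cells with dexamethasone and 10.68, 10.60 and 10.60 with 15d-PGJ2. In GR3KR cells it read 7.93, 8.41 and 8.23 with dexamethasone and 7.88, 8.32 and 9.20 with 15d-PGJ2. All 6 GR3KR arrays lay below all 6 wtGR arrays, and within GR3KR cells only 15d-PGJ2 array 3 exceeded the range of the dexamethasone arrays. The line difference under dexamethasone alone was 2.39-fold (-1.26 ± 0.29, SE, limma adjusted p = 0.0223).

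ATF3 (chr1:212565407-212620777), a stress-induced factor that represses or activates with its dimer partner, read 11.21, 10.92 and 10.18 in wtGR cells with dexamethasone and 11.90, 12 and 11.37 with 15d-PGJ2. The GR3KR readings were 9.97, 9.80 and 9.71 with dexamethasone and 6.29, 6.69 and 9.26 with 15d-PGJ2. Arrays 1 and 2 of the last group, which detected the fewest probes, were far below array 3. The line difference under dexamethasone alone, -0.95 ± 0.62 (SE), did not pass the test (limma adjusted p = 0.418), although the arrays did not overlap.

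NUPR1 (chr16:28532708-28538974), a small stress-induced chromatin protein, read 6.93, 7.26 and 7.75 in wtGR cells with dexamethasone and 7.69, 7.83 and 8.39 with 15d-PGJ2. Readings in GR3KR cells were 6.42, 6.62 and 6.39 with dexamethasone and 6.97, 6.84 and 7.22 with 15d-PGJ2. It was dim on all arrays, and its wtGR groups overlapped. The line difference under dexamethasone alone was -0.84 ± 0.24 (SE) and missed the threshold (limma adjusted p = 0.0578).

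TRIB3 (chr20:380760-397559), the pseudokinase that feeds back on ATF4 and CHOP, differed in every comparison of single factors. In wtGR cells it read 10.65, 10.85 and 11.11 with dexamethasone and 12.04, 12.10 and 11.90 with 15d-PGJ2. On GR3KR arrays the values were 9.68, 9.79 and 9.80 with dexamethasone and 10.71, 10.49 and 10.45 with 15d-PGJ2. The GR3KR arrays with 15d-PGJ2 reached the lower end of the wtGR arrays without it. Under dexamethasone alone GR3KR cells were 2.17-fold lower (-1.11 ± 0.16, SE, limma adjusted p = 0.00213).

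PPP1R15A (chr19:48872421-48876058), the phosphatase subunit that ends the response, read 10.85, 10.25 and 10.57 in wtGR cells with dexamethasone and 11.79, 12.08 and 11.40 with 15d-PGJ2. In GR3KR cells it read 9.36, 9.84 and 9.52 with dexamethasone and 10.27, 9.97 and 9.65 with 15d-PGJ2. The wtGR groups were apart and the GR3KR groups overlapped. The line difference under dexamethasone alone was 1.97-fold (-0.98 ± 0.24, SE, limma adjusted p = 0.0315).

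CHAC1 (chr15:40953471-40956512), an enzyme that degrades glutathione, read 6.66, 7.09 and 7.39 in wtGR cells with dexamethasone and 7.15, 7.30 and 7.88 with 15d-PGJ2. The GR3KR readings were 5.06, 5.24 and 5.37 with dexamethasone and 4.96, 4.55 and 6.14 with 15d-PGJ2, and only array 3 of each of these groups was above detection. It was detected on all 6 wtGR arrays, and so passed the filter of 3 arrays only through the line where it is higher. Its difference between the lines is therefore not free of that filter. CHAC1 was also called lower under dexamethasone alone with no filter on dim probes. With each undetected array set to the lowest level it detected, the line difference under dexamethasone alone was at least 3.13-fold (fitted difference -1.82 ± 0.37, SE, limma adjusted p = 0.0134).

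DDIT4 (chr10:72273924-72276036), which encodes the mTORC1 inhibitor REDD1 and is also a known target of the glucocorticoid receptor, read 11.79, 12.24 and 12.12 in wtGR cells with dexamethasone and 12.64, 12.80 and 12.76 with 15d-PGJ2. Readings in GR3KR cells were 11.15, 11.20 and 11 with dexamethasone and 11.36, 10.77 and 11.34 with 15d-PGJ2. The wtGR groups were apart, and the GR3KR groups overlapped. The line difference under dexamethasone alone was 1.92-fold (-0.94 ± 0.19, SE, limma adjusted p = 0.0137).

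**Figure D1:**
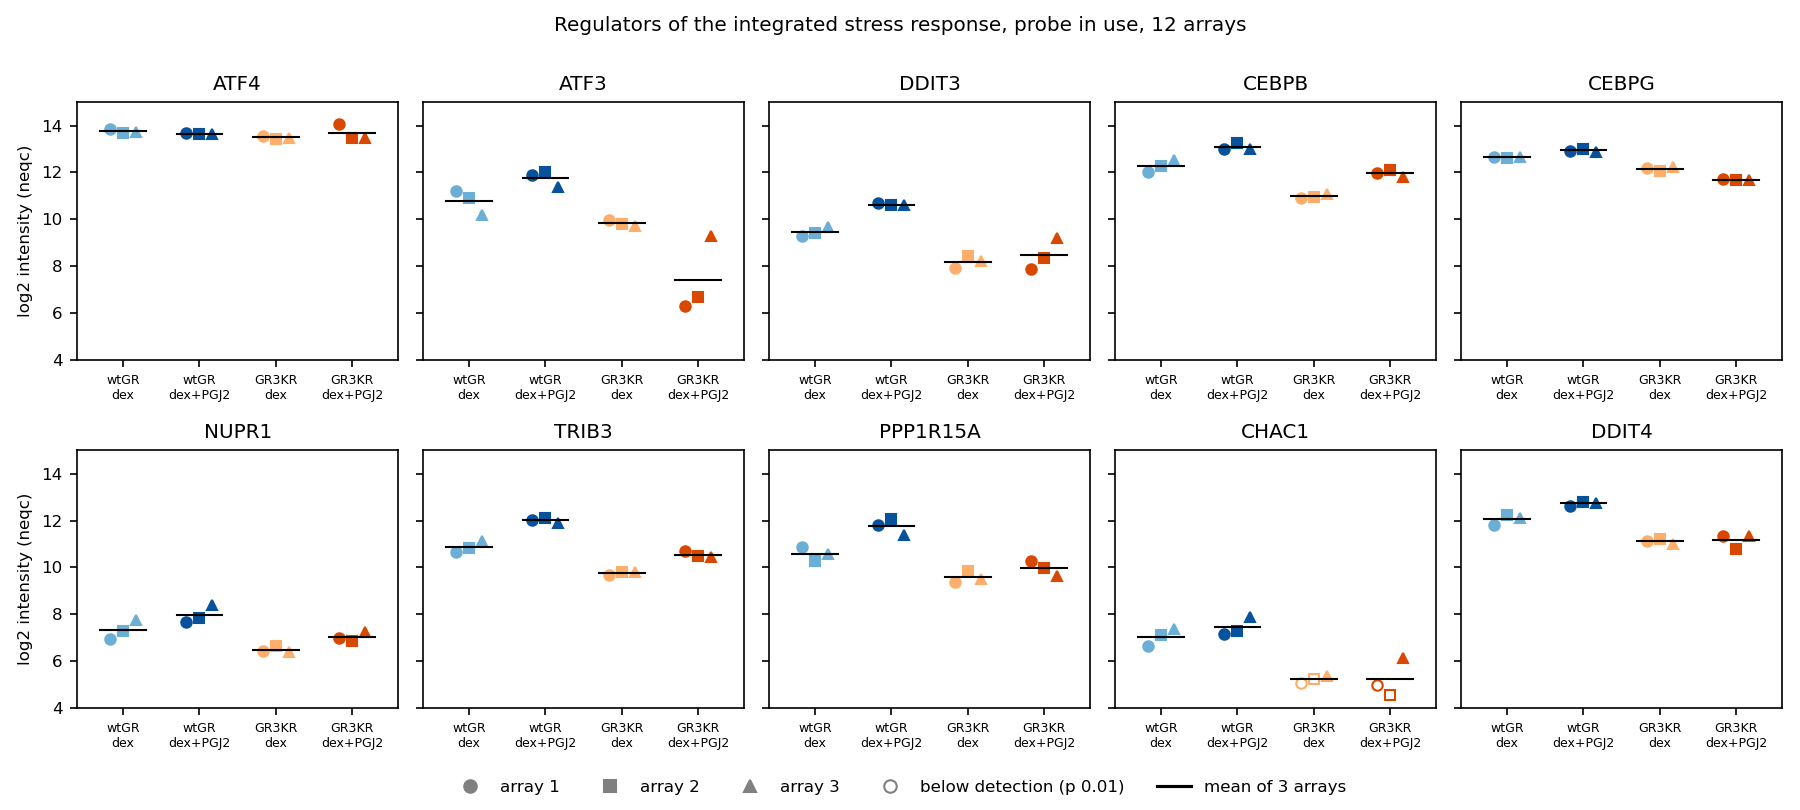
The plot shows the normalized log2 intensity (vertical axis) of the probe in use for each of the 10 members in the 4 groups (horizontal axis; dex is dexamethasone, PGJ2 is 15d-PGJ2). Points are arrays, hollow where below detection, and bars are means of 3 arrays. For all 10 members the GR3KR dexamethasone arrays lie below the wtGR dexamethasone arrays, and ATF3 is at 6.29 and 6.69 on the first and second GR3KR 15d-PGJ2 arrays.

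This line comparison under dexamethasone does not contain the 15d-PGJ2 arrays that stood apart. They still entered the normalization, the probe filter, the choice of probe and the shared estimate of spread. Fits that leave out arrays keep the normalization of all 12. The comparison does contain wtGR dexamethasone arrays 2 and 3 and GR3KR dexamethasone array 2, on which ACTB probe ILMN_1777296 was low. When GR3KR 15d-PGJ2 arrays 1 and 2 were left out, 9 of 10 members were called lower, all but ATF4, against 11.7% of all genes. Leaving out each array in turn gave between 2 and 9 called members. CEBPB and TRIB3 were called in 12 of 12 of these fits, CHAC1 in 11, DDIT4 in 9, DDIT3 in 8 and PPP1R15A in 6, but CEBPG in only 3. The count was 2 without GR3KR dexamethasone array 1, 3 without GR3KR dexamethasone array 3, and 4 without wtGR dexamethasone array 2 or 3.

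With 15d-PGJ2 in wtGR cells, TRIB3 rose 2.21-fold (1.14 ± 0.16, SE, n = 3 and 3, limma adjusted p = 0.0155) and was the only member of the 10 that passed the test. Of all genes, 0.146% were called higher and 0.073% lower, so few genes passed at all. The log2 difference was above 0 for 9 of 10 members, all but ATF4, with a median of 0.75 against -0.07 over all genes. The arrays did not overlap for 8 of 10 members, against 21.1% of all genes, and in ATF4 the 15d-PGJ2 arrays were the lower ones. CHAC1 and NUPR1 were the 2 members whose groups overlapped.

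The uncalled differences in wtGR cells ranged from -0.11 for ATF4 to 1.20 for PPP1R15A. PPP1R15A (1.20 ± 0.24, SE, limma adjusted p = 0.093) and CEBPB (0.82 ± 0.17, limma adjusted p = 0.0949) came nearest to the threshold. DDIT3, at 1.18 ± 0.29, had a limma adjusted p of 0.189. For DDIT4 the difference was 0.68, for NUPR1 0.65, for CHAC1 0.40 and for CEBPG 0.30, with limma adjusted p-values of 0.258, 0.399, 0.775 and 0.468. ATF3, with 0.98 ± 0.62 (SE), had the widest interval, from -0.38 to 2.34.

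These wtGR calls changed with the arrays used for the spread. Without GR3KR 15d-PGJ2 arrays 1 and 2, TRIB3, DDIT3, CEBPB and PPP1R15A were called higher, 4 of 10 against 0.551% of all genes, with limma adjusted p-values of 0.0106, 0.016, 0.0458 and 0.0459. Leaving out 1 array at a time gave between 0 and 4 called members. With the replicate numbers as a block, 0 members were called, and TRIB3 had a limma adjusted p of 0.076. TRIB3 lost its call without wtGR dexamethasone array 1 or 2 and without any 1 of the wtGR 15d-PGJ2 arrays, with limma adjusted p-values of up to 0.137 and differences from 1.04 to 1.26 over the 12 fits.

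In GR3KR cells with 15d-PGJ2, CEBPB and TRIB3 rose and ATF3 and CEBPG fell. CEBPB rose 1.97-fold (0.98 ± 0.17, SE, n = 3 and 3, limma adjusted p = 0.00515) and TRIB3 1.73-fold (0.79 ± 0.16, limma adjusted p = 0.00695). ATF3 fell by 2.41 log2 units (SE 0.62, limma adjusted p = 0.0131) and CEBPG by 0.46 (SE 0.12, limma adjusted p = 0.0152). These are 2 of 10 members higher, against 30.7% of all genes called higher, and 2 of 10 lower, against 14.8%, so the counts are near the background. The members' median difference was 0.23 and that of all genes 0.26. The arrays did not overlap for 5 of 10 members, against 54.1% of all genes.

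How far these calls depended on the arrays with the fewest detected probes differed between the members. The fit without both of those arrays leaves a lone array in its group, so a call lost there may also reflect fewer arrays. Without GR3KR 15d-PGJ2 arrays 1 and 2, 0 of 10 members were called by limma, 5 had an unadjusted p under 0.05, and 0.122% of all genes were called higher. With the lone remaining array assumed to vary like the other groups, the difference was 0.81 for CEBPB, 0.70 for TRIB3 and -0.49 for CEBPG, close to the values with all arrays. ATF3 moved to -0.56, DDIT3 from 0.28 to 1.01 and CHAC1 from -0.01 to 0.92. With the number of detected probes on each array as a covariate, 0 of 10 members were called by limma, and 0 had an unadjusted p under 0.05. That number was lower on every array of this group than on the rest, so covariate and group are hard to tell apart. Leaving out 1 array at a time, CEBPB and TRIB3 were called in 12 of 12 fits, ATF3 lost its call without either of the 2 arrays with the fewest detected probes, and CEBPG without GR3KR dexamethasone array 1 or 3 (highest limma adjusted p 0.0546 and 0.0585).

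**Figure D2:**
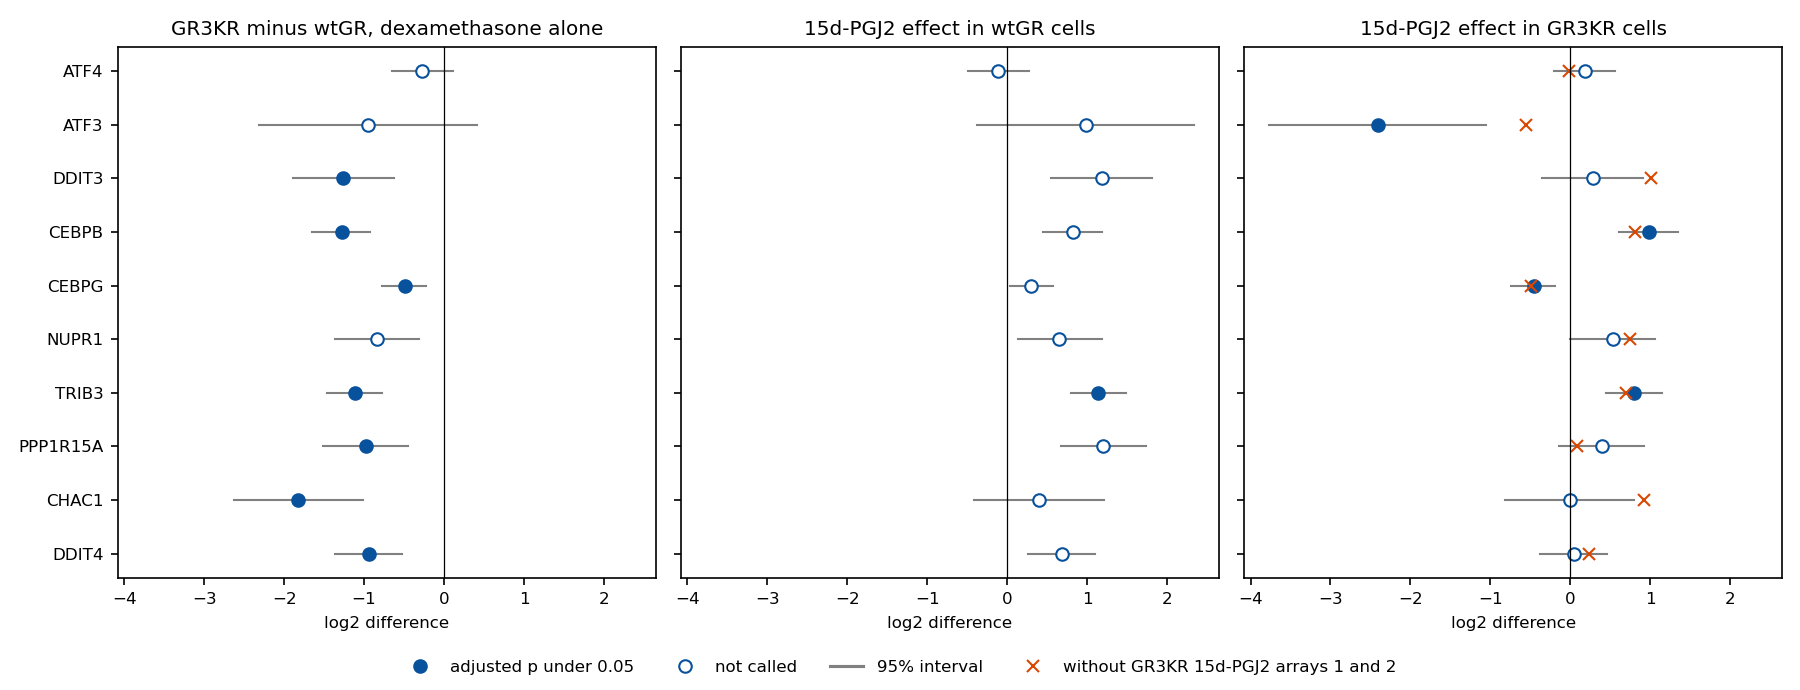
The plot shows log2 differences (horizontal axis) of the 10 members (vertical axis) between the lines under dexamethasone alone and for 15d-PGJ2 in each line. Filled points passed the test, lines are 95% intervals, and crosses give the GR3KR effect without arrays 1 and 2. All 10 differences between the lines are below 0, 9 of 10 wtGR effects are above 0, and the ATF3 cross lies at -0.56 against -2.41 with all arrays.

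The 15d-PGJ2 effects of the lines were compared directly as a difference of differences. It passed the test for ATF3, at -3.40 ± 0.87 (SE, limma adjusted p = 0.0267), and for CEBPG, at -0.76 ± 0.18 (SE, limma adjusted p = 0.0218), both lower in GR3KR cells. Of all genes, 7.07% were called lower and 17.6% higher in this comparison. The median difference was -0.52 over the members and 0.33 over all genes. For TRIB3 (-0.35, 95% interval -0.84 to 0.14) and CEBPB (0.16, -0.36 to 0.67) no difference between the lines in the 15d-PGJ2 effect passed the test, and the intervals do not show that the effects were alike. PPP1R15A (-0.81), DDIT4 (-0.64) and DDIT3 (-0.90) had limma adjusted p-values of 0.0921, 0.0941 and 0.11. With the first and second GR3KR 15d-PGJ2 arrays left out, 0 members passed in limma, 3 had an unadjusted p under 0.05, and the values were -1.55 for ATF3 and -0.79 for CEBPG. Leaving out 1 array at a time, ATF3 was called in 5 of 12 fits and CEBPG in 7, with limma adjusted p-values of at most 0.0699 and 0.0652. Both lost the call without array 1 or 3 of GR3KR cells with dexamethasone, without GR3KR 15d-PGJ2 array 2, or without the first or second of the wtGR 15d-PGJ2 arrays, and ATF3 also without wtGR dexamethasone array 3 or GR3KR 15d-PGJ2 array 1.

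Under dexamethasone with 15d-PGJ2, 9 of 10 members were called lower in GR3KR than in wtGR cells, all but ATF4. Of all genes, 18.7% were called lower and 32.7% higher. The members' median was -1.52 and that of all genes 0.21, and the arrays did not overlap for 9 of 10 members, against 55.1% of all genes. ATF3 had the largest difference, -4.34 ± 0.62 (SE, limma adjusted p = 0.000566). DDIT3 differed by -2.16 and PPP1R15A by -1.79. CHAC1, above detection on 1 of 3 GR3KR arrays, has only a bound, at least 2.3-fold lower, and passed the filter only through wtGR arrays. DDIT4 differed by -1.57, TRIB3 by -1.47, CEBPG by -1.26, CEBPB by -1.13 and NUPR1 by -0.96. ATF4, at 0.02, did not pass.

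Leaving out the same arrays 1 and 2, 8 of 10 members were called lower under both agents, against 7.1% of all genes, and NUPR1 lost its call (-0.75, limma adjusted p = 0.142). That fit holds a lone GR3KR array under both agents, whose spread is taken from the other groups. ATF3 was then at -2.49, CHAC1 at a fitted -1.30 against -2.23 with all arrays, and DDIT3 at -1.42, the 3 values that moved most. TRIB3 (-1.56), CEBPG (-1.28), DDIT4 (-1.39) and CEBPB (-1.30) stayed near their values with all arrays. The comparisons described share groups of arrays, so agreement between them is not independent.

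These differences are relative to a quantile normalization, and scaling each array to its median instead moved the median of all genes. It moved from -0.07 to -0.37 for the wtGR effect, from 0.26 to -0.08 for the GR3KR effect, and from -0.03 to -0.31 and 0.21 to -0.16 for the lines without and with 15d-PGJ2. With that scaling 0.073% of all genes were called higher and 0.519% lower for the wtGR effect, 4.23% and 19.1% for the GR3KR effect, and 6.91% and 3.95% for their difference. For the lines the shares were 0.916% higher and 14.7% lower under dexamethasone, and 13.5% and 25.4% with 15d-PGJ2. The members called were then 8 lower for the lines under dexamethasone, 9 lower with 15d-PGJ2, 0 for the wtGR effect, 1 higher and 1 lower for the GR3KR effect, and 1 lower for the difference. TRIB3 in wtGR cells stood at 0.72, and CEBPG there turned from 0.30 to -0.09. The 1 member still called for the difference was ATF3, and CEBPG lost that call at -0.38.

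The probes of a gene did not always read alike. For ATF4, a further probe annotated to another transcript record (ILMN_2358457) read 10.99, 10.75 and 10.73 in wtGR cells with dexamethasone and 10.28, 10.24 and 10.87 with 15d-PGJ2. On GR3KR arrays the values were 9.96, 10.38 and 10.00 with dexamethasone and 5.69, 6.19 and 10.83 with 15d-PGJ2. Under dexamethasone alone the GR3KR arrays lay below the wtGR arrays without overlap. That difference of -0.71 ± 1.02 (SE) did not pass the test (limma adjusted p = 0.8). Arrays 1 and 2 of GR3KR cells with 15d-PGJ2 were far lower, and both were below detection, while the brightest ATF4 probe read 14.07 and 13.47 there. In the fit over 16339 probes ILMN_2358457 was called at least 6.3-fold lower in GR3KR cells under both agents (limma adjusted p = 0.0364), against 21.7% of probes. Without those arrays the direction turned and the call was lost (0.37 ± 0.29, SE, limma adjusted p = 0.362). The third ATF4 probe, ILMN_1783394, was dim, detected on 9 of 12 arrays, and passed the test in no comparison. Between the lines under dexamethasone alone it stood at 0.41, the other direction.

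For ATF3, probe ILMN_1791346 was detected on 1 wtGR dexamethasone array (5.63) and 2 wtGR 15d-PGJ2 arrays (6.67 and 6.87), and on 0 GR3KR arrays. It passed the filter only through wtGR arrays, so no difference between the lines is given for it. ILMN_1661109 was detected on 0 of 12 arrays. Both dim ATF3 probes were thus below detection on all 6 GR3KR arrays, but also on some or all of the wtGR arrays, so this does not set the lines apart.

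For NUPR1, both probes moved the same way in the comparisons of single factors. ILMN_1810560 read 5.94, 6.48 and 6.97 in wtGR cells with dexamethasone and 7.08, 7.22 and 7.51 with 15d-PGJ2. In GR3KR cells it read 5.41, 5.84 and 5.56, and then 6.35, 6.74 and 6.29, so that after normalization 15d-PGJ2 arrays lay above dexamethasone arrays in both lines. The lowest detected levels on these GR3KR arrays were 5.32, 5.50 and 5.35, and then 6.15, 6.44 and 5.69. Before normalization the probe's signals there were 87.9, 97.7 and 90.7 with dexamethasone and 80.6, 76.6 and 93.4 with 15d-PGJ2, without such a rise. Its rise in GR3KR cells, 0.86 ± 0.26 (SE), was called (limma adjusted p = 0.0238), against 26.5% of probes called higher, but not without arrays 1 and 2 (0.69, limma adjusted p = 0.318). The brighter NUPR1 probe gave 0.53 and was not called (limma adjusted p = 0.0887), and median scaling turned it to -0.29.

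**Figure D3:**
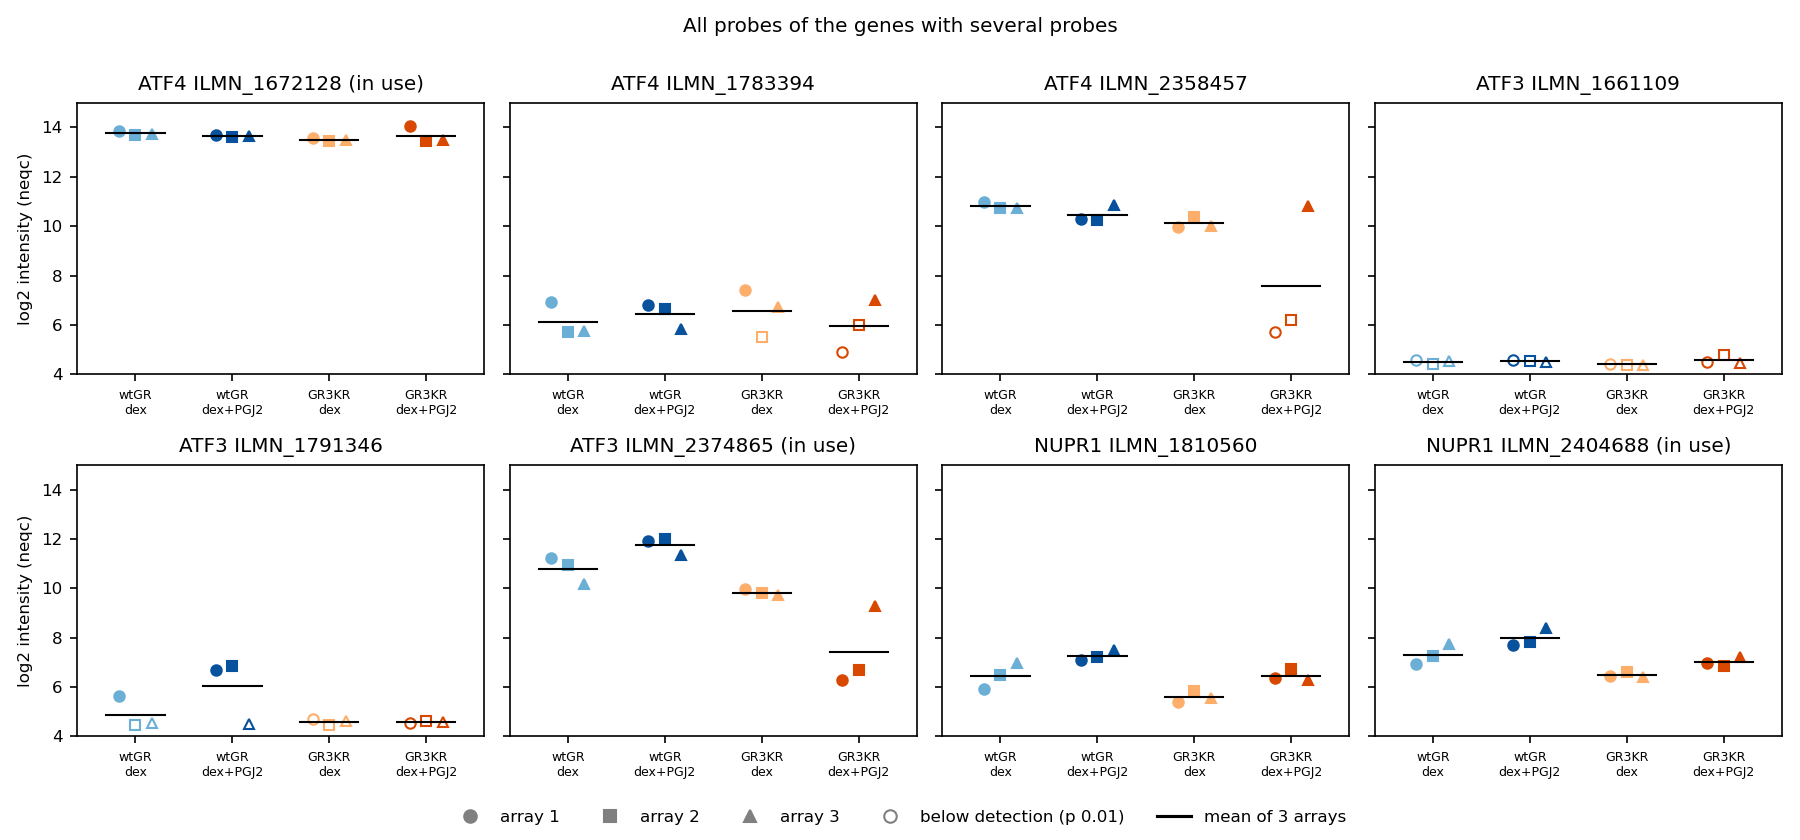
The plot shows the normalized log2 intensity (vertical axis) of all 8 probes of ATF4, ATF3 and NUPR1 in the 4 groups (horizontal axis), with hollow points below detection and bars at the mean of 3 arrays. Among the ATF4 probes, ILMN_2358457 reads 5.69, 6.19 and 10.83 on the GR3KR arrays with 15d-PGJ2. Both NUPR1 probes have their highest mean in wtGR cells with 15d-PGJ2 and their lowest in GR3KR cells with dexamethasone.

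Across the 12 arrays, which share groups and normalization, the 36 pairs among the members other than ATF4 had Pearson correlations from 0.41 to 0.98 (median 0.86), given as a description. The 4 lowest involved ATF3, at 0.41 with CEBPB, 0.48 with NUPR1, 0.49 with TRIB3 and 0.59 with PPP1R15A. TRIB3 was most like FOXD4 (r = 0.986), HSPB8 (r = 0.982) and CEBPB (r = 0.981) of all genes tested. Over the 9 arrays without the GR3KR 15d-PGJ2 group these correlations were 0.989, 0.985 and 0.989. Apart from TRIB3 with CEBPB, correlations between members were computed only over all 12 arrays. These include GR3KR 15d-PGJ2 arrays 1 and 2, where ATF3 read 6.29 and 6.69. ATF4, which read 14.07 on the first of these, had correlations between -0.11 and 0.34 with the other members. The genes most like it were PSMA6, XYLB and CTNND1, with r of 0.934, 0.898 and 0.898 over 12 arrays and 0.954, 0.803 and 0.775 over 9.

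Other genes of the response, in 8 lists by role, were read for comparison, and 94 of them were measured. These lists too were chosen with earlier results of these data known, so their counts are a description. Under dexamethasone alone 26 of the 94 were called lower in GR3KR than in wtGR cells and 0 higher, with a median of -0.41 against -0.03 over all genes. Called lower were 1 of 10 eIF2 alpha kinases and phosphatase partners, 2 of 10 eIF2 and eIF2B subunits, 4 of 13 genes of amino acid synthesis, 5 of 9 amino acid transporters and 4 of 12 tRNA synthetases. Also lower were 2 of 5 secreted factors, 3 of 19 other ATF4 targets and 5 of 16 genes of other branches of the unfolded protein response. The share of all genes called lower was that given for the members. Leaving out 1 array at a time gave between 9 and 31 called of the 94, with 9 without GR3KR dexamethasone array 3, 10 without array 1 and 12 without array 2 of that group, and 17, 13 and 14 without wtGR dexamethasone array 1, 2 or 3. The genes named for this comparison were picked after their values were seen.

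INHBE, a secreted activin subunit, was 6.36-fold lower in GR3KR cells (-2.67 ± 0.21, SE, limma adjusted p = 3.57e-05). ASNS, which makes asparagine, was 3-fold lower (-1.58 ± 0.16, SE, limma adjusted p = 0.000195). EIF4EBP1 (-1.48), a repressor of cap-dependent translation, STC2 (-1.43), a secreted glycoprotein, HSPA5 (-1.32), the ER chaperone BiP, and CTH (-1.27), which makes cysteine, were also called lower. DNAJC3, an inhibitor of eIF2 alpha kinases, was the 1 called gene of its list and was at least 1.89-fold lower, with 0 of 3 GR3KR arrays above detection. None of the 4 eIF2 alpha kinase genes was called by limma in this comparison, nor had any an unadjusted p under 0.05.

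**Figure D4:**
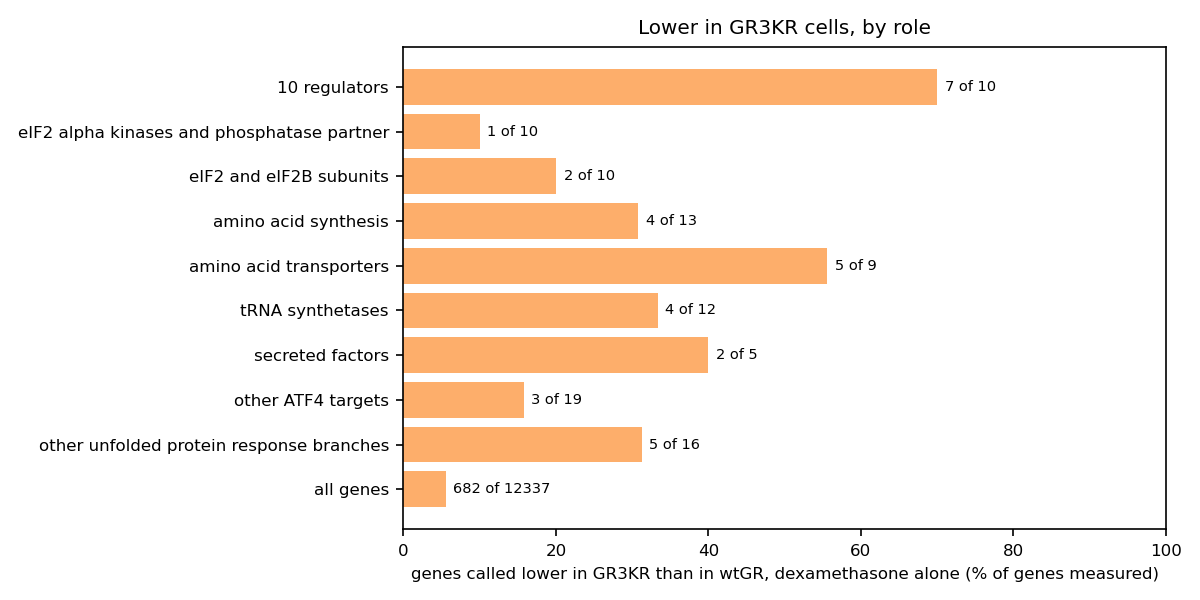
The bars give the share of measured genes (horizontal axis, percent) called lower in GR3KR than in wtGR cells under dexamethasone alone, for the 10 members, 8 lists of other genes of the response and all 12337 genes (vertical axis), with the counts beside them. The members have 7 of 10, the amino acid transporters 5 of 9 and all genes 682 of 12337.

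With 15d-PGJ2 in wtGR cells, 1 of the 94 other genes was called, SQSTM1, an autophagy adaptor that rose 2.23-fold (1.16 ± 0.17, SE, limma adjusted p = 0.0261). In the fit lacking the same arrays 1 and 2, INHBE, SLC7A5, SQSTM1 and STC2 were called higher. The median over the 94 genes was 0.02, and leaving out 1 array at a time gave 0 to 3 called, with 0 without wtGR dexamethasone array 1 or 2 or any 1 array of the wtGR 15d-PGJ2 or GR3KR dexamethasone groups. In GR3KR cells 33 of the 94 were called higher and 10 lower with all arrays, close to the shares over all genes (30.7% and 14.8%). With each array scaled to its median the split turned to 11 higher and 15 lower. Without arrays 1 and 2 of that group the count was 1, STC2, which was higher.

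By role, 6 of 9 amino acid transporters, 6 of 13 genes of amino acid synthesis, 3 of 5 secreted factors and 2 of 12 tRNA synthetases rose in GR3KR cells with 15d-PGJ2, and 0 of these fell, where 30.7% of all genes rose and 14.8% fell. All of these calls but that of STC2 were lost without arrays 1 and 2. SLC6A9, a glycine transporter, rose 3.38-fold, SLC1A4, a neutral amino acid transporter, 2.61-fold, and PSPH, the last enzyme of serine synthesis, 2.92-fold, with log2 differences of 1.76, 1.39 and 1.55. MTHFD2, a mitochondrial folate enzyme, rose 1.98-fold, INHBE 2.93-fold and GDF15, a secreted stress cytokine, 2.88-fold. In the fit lacking those arrays, the log2 differences were 1.26 for SLC6A9, 1.05 for SLC1A4, 1.05 for PSPH, 0.69 for MTHFD2, 1.19 for INHBE and 0.90 for GDF15, with limma adjusted p-values from 0.0976 for SLC6A9 to 0.334 for GDF15. The synthetase genes EPRS1 and NARS1 rose 1.45-fold and 1.39-fold with all arrays, and 2 of 12 is below the share of all genes. With each array scaled to its median, only SLC1A5 and SLC6A9 of the 6 transporters were called. GDF15, EPRS1 and NARS1 were not called with that scaling. The other lists held calls in both directions, with 2 higher and 2 lower of 10 kinases and phosphatase partners and 4 higher and 2 lower of 10 eIF2 and eIF2B subunits. The other ATF4 targets had 6 higher and 2 lower of 19, and the other unfolded protein response branches 4 higher and 4 lower of 16.

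Among genes called lower in GR3KR cells with 15d-PGJ2, several were detected on only 1 of 3 treated arrays. These were PPP1CA, a catalytic subunit that PPP1R15A recruits, at least 16.7-fold lower, and EIF5, which activates the GTPase of eIF2, at least 5.94-fold. EDEM1, which sends misfolded ER proteins to degradation, was at least 3.86-fold lower, the ER chaperone HYOU1 at least 3.15-fold and EIF2AK3, the kinase PERK, at least 1.61-fold. CEBPA (-2.43) and CLIC4 (-1.49) fell with all arrays above detection, and EIF2B3 rose by 1.24. None of these named genes was called without arrays 1 and 2, where PPP1CA stood at -2.76, EIF5 at -0.70, EDEM1 at -0.95, HYOU1 at -1.26, EIF2AK3 at -0.45, CEBPA at -0.70, CLIC4 at -0.92 and EIF2B3 at 0.87.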

How the data were processed

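The deposited bead table holds, per the file headers, a linear intensity for each probe and array, not normalized, and a detection p-value beside it. A second deposited table holds log2 values, for which the submitters' processing notes name lumi. Its steps and any genome build are not given in the sources used here. The neqc function (limma 3.58.1, R 4.3.3, offset 16) corrected the background from the detection p-values, applied quantile normalization and took log2. A probe was kept if it had 1 gene symbol and was detected at p under 0.01 on 3 or more of 12 arrays (16339 probes), and each of 12337 genes was read by its brightest kept probe. Of the 47312 probes, 30107 have 1 symbol, 8 several and 17197 none in the platform annotation. All 10 symbols were found in the RefSeq gene table, which gave the coordinates.

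Group means were fitted with lmFit and eBayes of limma (8 residual and 2.97 prior degrees of freedom) over 5 comparisons, with two-sided tests. Adjusted p-values are Benjamini-Hochberg values over all 12337 genes (16339 for single probes), and a gene was called under 0.05. Errors are standard errors of the model. A gene not detected on every array of its dimmer group has a fold given as "at least", each undetected array being set to the lowest level it detected.

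Nothing in the labels ties the triplicates to separate cultures, and the p-values then reflect only the spread of these samples, which may be technical. Array number limits the precision. No slide or scan record was used, and array pairs correlated at 0.814 or more, with 0 identical pairs. Of 18 same-number correlations of deviations, from -0.671 to 0.705, 6 exceeded 0.1. All 6 were between arrays numbered 1 or 3 outside the GR3KR 15d-PGJ2 group, at 0.618 to 0.705 for number 1 and 0.168 to 0.677 for number 3. For number 2 outside that group they ran from -0.671 to 0.081. Whether replicate numbers pair the samples is thus not settled, and the main fit has no replicate block. The members and the gene lists were chosen with earlier results of these data known. Named were all members and their probes, the 3 genes most correlated with ATF4 and with TRIB3, up to 2 called genes of each list with the largest 15d-PGJ2 effect, and genes stated as picked later. Alternatives were median scaling, cyclic loess, no background correction, other probe filters, the mean of a gene's probes, the deposited log2 values, a replicate block, array weights, detected probes as covariate, only the groups compared, and left-out arrays. Leaving out GR3KR 15d-PGJ2 arrays 1 and 2 together with wtGR dexamethasone array 3 was added after seeing the data, as were the values without arrays 1 and 2 for further probes and listed genes.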

Additional observations from a re-analysis of the deposited data

Results flagged for a closer look

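The 15d-PGJ2 effect differed between the lines for 2 of the 10 members by the test of the difference itself, both lower in GR3KR cells. Of all genes, 7.07% were called lower and 17.6% higher by that test. For ATF3 the effect in GR3KR cells minus that in wtGR cells was -3.40 log2 units (SE 0.87, limma adjusted p = 0.0267), with 0.98 in wtGR and -2.41 in GR3KR cells. For CEBPG it was -0.76 (SE 0.18, limma adjusted p = 0.0218), with 0.30 in wtGR and -0.46 in GR3KR cells. Neither passed without the first and second GR3KR 15d-PGJ2 arrays, at -1.55 (limma adjusted p = 0.13) for ATF3 and -0.79 (limma adjusted p = 0.0948) for CEBPG. In that fit, which holds a lone GR3KR 15d-PGJ2 array, CEBPG kept its size while ATF3 shrank. With each array scaled to its median the reverse was seen. CEBPG shrank to -0.38 and lost its call (limma adjusted p = 0.311), and ATF3 kept it at -3.60 (limma adjusted p = 0.0475).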

How the results depend on the processing

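Counts are of 10 members unless stated, and no cause was tested beyond what a setting itself changes. For the lines under dexamethasone the count of 7 stayed between 6 and 9 under every alternative other than leaving out 1 array, which gave 2 to 9. For the lines under both agents the count of 9 stayed at 8 or 9, except for 2 with detected probes as covariate. The wtGR count of 1 became 0 with median scaling, with only the groups compared and with the replicate block (TRIB3 adjusted p = 0.076), 2 with cyclic loess or the covariate, 3 with array weights or without 3 arrays, 4 with the deposited log2 values or without GR3KR 15d-PGJ2 arrays 1 and 2, and 0 to 4 leaving out 1 array. The GR3KR count of 4 became 2 with median scaling or only the groups compared, 1 without 3 arrays, 0 with the covariate or without arrays 1 and 2, and 3 to 4 leaving out 1 array. The difference count of 2 became 1 with median scaling, 4 with the deposited values, 0 with the covariate, without 3 arrays or without arrays 1 and 2, and 0 to 4 leaving out 1 array. Of the 94 other genes, the wtGR count of 1 became 0 (median scaling, replicate block, only the groups compared), 2 (cyclic loess, no filter, array weights), 3 (covariate), 4 (deposited values, or without arrays 1 and 2), 6 (without 3 arrays) and 0 to 3 leaving out 1 array. The GR3KR count of 43 became 26 (median scaling, or only the groups compared), 0 (covariate), 1 (without arrays 1 and 2), 7 (without 3 arrays) and 24 to 58, and the count of 26 for the lines under dexamethasone became 9 to 31, leaving out 1 array. Signs turned as follows, and of these ATF3 and the ATF4 probe ILMN_2358457 between the lines had been called. With the covariate, the GR3KR effect was 0.06 for ATF3 and 0.73 for CHAC1, and the difference -0.29 for CEBPB and 0.34 for CHAC1. With cyclic loess, the GR3KR effect was -0.13 for ATF4, -0.24 for DDIT3, 0.37 for CHAC1 and -0.13 for DDIT4, the difference -0.11 for ATF4 and -0.01 for CEBPB, and the lines under both agents -0.32 for ATF4. With median scaling, the wtGR effect was -0.09 for CEBPG and the GR3KR effect -0.41 for DDIT3, -0.00 for DDIT4 and -0.29 for NUPR1. The mean of the probes gave ATF4 -0.98 (GR3KR effect), -0.92 (difference) and -1.11 (lines under both agents), and the deposited values -0.04 and -0.21 for the first and last. Array weights, whose estimation did not fully converge, gave a difference of 0.17 for NUPR1. Without arrays 1 and 2, the GR3KR effect was -0.02 for ATF4 and 0.92 for CHAC1, the difference -0.01 for CEBPB, 0.52 for CHAC1 and 0.09 for NUPR1, and the lines under both agents -0.18 for ATF4; the further ATF4 probes ILMN_1783394 and ILMN_2358457 turned to 0.46 and 0.72 (GR3KR effect) and to 0.58 and 0.37 (lines under both agents). Without 3 arrays, these were -0.02, 0.92, -0.14 and 0.35 for the first 4 and -0.18 for the last. Leaving out 1 array, the GR3KR effect ran from -0.02 to 0.28 for ATF4, -0.47 to 0.33 for CHAC1, -0.09 to 0.57 for DDIT3 and -0.06 to 0.24 for DDIT4, the NUPR1 difference from -0.34 to 0.09, and ATF4 between the lines under both agents from -0.18 to 0.12. Signal over background limits CHAC1 and NUPR1, whose probes were dim. Whether the replicate numbers pair the samples is not settled, and with the block CEBPG lost its call between the lines under dexamethasone (limma adjusted p = 0.0714).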
